A study of Mus musculus with 24 samples.

Results

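Immediate early genes are switched on within minutes of a stimulus, from transcription factors already present in the cell and without new protein synthesis. The 9 followed here were Fos, Fosb, Jun, Junb, Egr1, Ier2, Atf3, Nr4a1 and Dusp1, chosen by gene symbol among the 16730 genes of the count table. All 9 were in the table and all 9 passed the filter that left 15020 genes for testing, namely at least 1 CPM (a count scaled by the library's total) in 3 mice or more. Their levels were measured by QuantSeq, which sequences 1 tag near the 3′ end of each messenger RNA, in epididymal white adipose tissue (eWAT, named gWAT in the labels) of 24 male mice. The mice formed 4 groups of 6, defined by diet (chow or HFD) and by genotype, with adipocyte-specific knockouts (Lama4 AKO) set beside their floxed littermates (Lama4 fl/fl).

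Every mouse was an adult from the strain labelled LFKO, carried floxed Lama4 alleles and ate its diet for 20 weeks. Chow was diet 5015, and the high-fat diet (HFD) was a 45% fat diet. In Lama4 AKO mice Cre was driven by the adiponectin promoter, which is active in adipocytes, whereas the RNA came from whole fat pads with their macrophages, vessels, stroma and blood. The pads were flash frozen in liquid nitrogen. The time from death to freezing, the hour of collection and the order of dissection are not given in the sources used here. The study checked RNA integrity in all samples and gives its range, without a value per mouse. From mouse to mouse, handling could therefore only be followed through other transcripts of the same libraries.

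Library totals ran from 5579590 to 18764516 counts. The deletion removes an exon far from the sequenced 3′ end, so Lama4 tags do not check it directly. By quantitative PCR the study reported a partial knockdown of Lama4 in eWAT of chow-fed Lama4 AKO mice. Lama4 averaged 6.46 ± 0.76 (log2 CPM, SD, n = 6) in chow-fed Lama4 fl/fl mice and 6.69 ± 0.40 in chow-fed Lama4 AKO mice, and 6.19 ± 0.82 and 5.61 ± 0.47 in the HFD-fed groups. The genotype is therefore taken from the labels. Adipocyte markers were abundant in every mouse, with a summed level of 12 genes between 18140 and 68770 CPM. An earlier analysis of these counts inferred that the study set aside 5 mice: replicates 3, 4 and 6 of HFD-fed Lama4 fl/fl, 3 of chow-fed Lama4 fl/fl and 5 of chow-fed Lama4 AKO. Values for the other 19 mice are given where they differ. On the largest axis of variation over all genes, the 5 lay on the side of their group nearer the other diet. They stood at 46.76 and 22.07 in the chow-fed groups and at -76.09 to -9.875 in the HFD-fed one. Differences between diets in the 19 mice therefore depend in part on which mice were left out.

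The members fall into a few roles. Fos and Fosb, with Jun and Junb, encode the partner proteins of the AP-1 transcription factor. Egr1 encodes a zinc finger transcription factor induced by growth factors, Atf3 a stress-induced repressor of the CREB family that also restrains inflammatory genes in macrophages, and Nr4a1 an orphan nuclear receptor. Ier2 encodes a small nuclear protein, and Dusp1 a phosphatase that switches off MAP kinases. In fat, adrenergic signals, insulin, mechanical stress and the dissection itself can induce such genes, in adipocytes as well as in macrophages and stromal cells.

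The stretch before the start site shows the elements through which such signals act, and 5 are printed because in the results that follow Fos, Junb, Atf3 and Dusp1 varied together as a block, whereas Fosb, a close relative of Fos, was not part of that block. They are reference sequences from RefSeq on GRCm38.p6, read in the direction of transcription from 150 bases before the start up to the base before it, or for Dusp1 up to 48 bases before it, where a 5′ leader of another transcript begins. Capitals mark TGACG, the core bound by CREB and ATF proteins, on either strand (CGTCA on the reverse). In Dusp1 they mark the full palindrome TGACGTCA, which contains it. The stretches of Atf3 and Fosb were left uncut, although they overlap an annotated leader by 7 and 6 bases. All 5 stretches hold TGACG, that of Fosb included. That of Atf3, at bases -7 to -3, can therefore lie within a leader. The part of TGACG in the block was not tested. The stretches of Atf3 and Dusp1 lie within the gene spans given below, before a start site inside the span. The windows are chr12:85473740-85473889 on the forward strand for Fos, and on the reverse strand chr8:84978749-84978898 for Junb, chr1:191183334-191183483 for Atf3, chr17:26508520-26508622 for Dusp1 and chr7:19310046-19310195 for Fosb.
Fos: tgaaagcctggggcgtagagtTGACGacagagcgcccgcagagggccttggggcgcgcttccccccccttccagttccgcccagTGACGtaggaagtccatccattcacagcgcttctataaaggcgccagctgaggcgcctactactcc
Junb: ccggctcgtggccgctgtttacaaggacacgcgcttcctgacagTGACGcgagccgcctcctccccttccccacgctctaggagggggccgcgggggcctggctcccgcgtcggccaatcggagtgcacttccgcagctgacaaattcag
Atf3: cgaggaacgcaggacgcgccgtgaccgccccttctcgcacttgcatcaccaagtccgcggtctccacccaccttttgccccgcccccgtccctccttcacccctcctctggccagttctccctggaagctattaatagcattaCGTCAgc
Dusp1: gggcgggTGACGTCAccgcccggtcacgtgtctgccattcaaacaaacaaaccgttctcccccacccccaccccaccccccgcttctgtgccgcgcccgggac
Fosb: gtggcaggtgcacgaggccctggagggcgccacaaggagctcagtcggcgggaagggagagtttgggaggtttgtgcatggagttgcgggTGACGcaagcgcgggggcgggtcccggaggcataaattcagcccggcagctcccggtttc

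RefSeq windows of 300 bases, 250 of them before the start, were at hand for 7 of the 9 members (Egr1 and Ier2 had none in the table used). TGACG stood in 6 of these 7 windows, against 20.8% of all 32851 windows. Jun, the exception, held TGACATCA, the variant known from its promoter, from base -45 to -38; 3.62% of all windows hold it. TGACGTCA stood in 1 of the 7, Dusp1, and in 1.79% of all windows. TGAGTCA, the AP-1 element (5.2% of all windows), and the CArG box bound by serum response factor (1.63%) were in none of the 7, which says only that these letters are not in these windows.

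Positions are those of GRCm38. Fos lies on chromosome 12 from 85473890 to 85477273 and Fosb on chromosome 7 from 19302696 to 19310051. Jun lies on chromosome 4 from 95049034 to 95052222, where the antisense gene Junos is also in the count table. Junb lies on chromosome 8 from 84976910 to 84978718 and overlaps Prdx2 on the other strand in the GENCODE annotation. Egr1 lies on chromosome 18 from 34859823 to 34864984, Ier2 on chromosome 8 from 84661331 to 84662854, and Nr4a1 on chromosome 15 from 101254269 to 101274795. Atf3 spans 191170296 to 191218039 of chromosome 1, and Dusp1 26505590 to 26562128 of chromosome 17, where a long gene model overlaps Ergic1. Whether counting used the strand is not given in the sources used here, so reads shared by Jun and Junos, Junb and Prdx2, or Dusp1 and Ergic1 cannot be told apart.

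The AP-1 gene Fos had a lowest level of 9.999 CPM, a median of 38.1 and a highest of 49.3 in chow-fed Lama4 fl/fl mice. In chow-fed Lama4 AKO mice these values were 12.2, 25.0 and 49.3 CPM. In HFD-fed Lama4 fl/fl mice they were 14.9, 32.5 and 40.2 CPM, and in HFD-fed Lama4 AKO mice 28.6, 36.1 and 42.8 CPM. The groups overlapped throughout, and the HFD-fed Lama4 AKO mice lay closest together, with a highest level 1.49 times the lowest.

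Junb had 19.8, 53.1 and 100.9 CPM (lowest, median and highest) in chow-fed Lama4 fl/fl mice and 36.9, 69.0 and 89.2 CPM in chow-fed Lama4 AKO mice. It had 27.0, 68.7 and 112.9 CPM in HFD-fed Lama4 fl/fl mice and 68.1, 98.7 and 115.2 CPM in HFD-fed Lama4 AKO mice. Each of the other 3 groups held mice below the lowest HFD-fed Lama4 AKO mouse as well as mice above it, and the HFD-fed Lama4 AKO mice were again the most alike.

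Fosb rested on few counts, from 5 to 173 per library. It ran from 0.703 to 17.8 CPM in chow-fed Lama4 fl/fl mice with a median of 1.85, and from 0.854 to 4.07 CPM in chow-fed Lama4 AKO mice with a median of 3.03. In HFD-fed Lama4 fl/fl mice it ran from 0.799 to 4.31 CPM (median 2.19) and in HFD-fed Lama4 AKO mice from 0.625 to 4.02 CPM (median 1.34). A single mouse, replicate 1 of chow-fed Lama4 fl/fl, held the highest level, and the next highest of its group was 6.70 CPM.

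Jun varied little, between 60.0 CPM in replicate 3 of chow-fed Lama4 fl/fl and 119.0 CPM in replicate 3 of HFD-fed Lama4 fl/fl. Its group medians were 99.9 and 104.1 CPM on chow and 87.1 and 92.7 CPM on HFD, each time with Lama4 fl/fl mice first.

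Of the other transcription factors, Atf3 had a lowest level of 14.9 CPM (replicate 1), a median of 134.1 and a highest of 192.1 in chow-fed Lama4 fl/fl mice, and 20.7, 80.0 and 164.8 CPM in chow-fed Lama4 AKO mice. It had 33.2, 131.4 and 186.3 CPM in HFD-fed Lama4 fl/fl mice and 130.6, 182.9 and 251.6 CPM in HFD-fed Lama4 AKO mice. Thus 5 of the 6 chow-fed Lama4 AKO mice, at 114.0 CPM or below, were under every HFD-fed Lama4 AKO mouse, and replicate 5 at 164.8 CPM was among them.

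Egr1 stayed between 27.1 and 56.0 CPM, with group medians of 45.1, 44.9, 50.7 and 42.9 CPM in the order Lama4 fl/fl on chow, Lama4 AKO on chow, Lama4 fl/fl on HFD and Lama4 AKO on HFD. Nr4a1, on 14 to 90 counts per library, ran from 0.860 to 9.28 CPM, with group medians of 3.66, 4.15, 3.51 and 3.51 CPM in that order. Its highest level, like that of Fosb, was in replicate 1 of chow-fed Lama4 fl/fl.

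Ier2 had group medians of 9.76, 9.60, 10.3 and 12.5 CPM in the same order, between 5.92 CPM (replicate 4) and 16.6 CPM (replicate 5) of HFD-fed Lama4 fl/fl. The phosphatase gene Dusp1 had lowest, median and highest levels of 66.7, 73.0 and 92.7 CPM in chow-fed Lama4 fl/fl mice and of 50.9, 63.9 and 89.98 CPM in chow-fed Lama4 AKO mice. On HFD it had 58.6, 70.4 and 88.8 CPM in Lama4 fl/fl mice and 74.4, 85.0 and 100.7 CPM in Lama4 AKO mice, again with overlap.

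**Figure D1:**
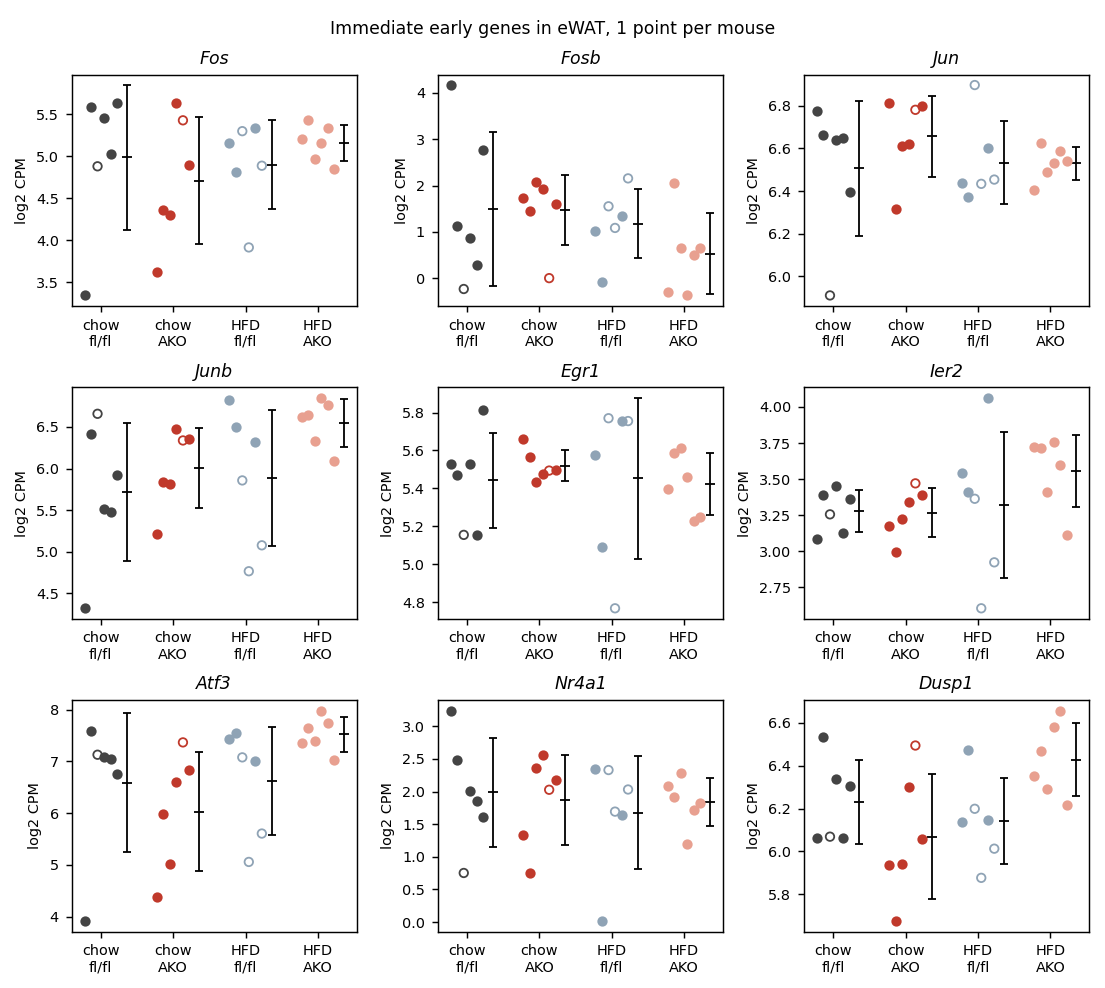
Levels of the 9 immediate early genes in log2 CPM (vertical axis) in the 4 groups, 1 point per mouse, with the mean and SD of 6 mice at the right of each group; open points are the 5 mice inferred to have been set aside. Fosb, Atf3 and Nr4a1 spread widely between mice of a group, Jun, Egr1 and Dusp1 little, and no gene separates 2 groups.

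What set the members apart from one another was their spread between mice. Over 24 mice the highest level was 28.5 times the lowest for Fosb, 16.8 times for Atf3, 10.8 times for Nr4a1, 5.82 times for Junb and 4.93 times for Fos. It was 2.79 times for Ier2, 2.07 times for Egr1, and 1.98 times for both Jun and Dusp1. On the log2 scale the SD within groups was 1.08 for Fosb, above that of 95.2% of the genes tested, and 1.03 for Atf3, above 94.1%. It was 0.21 for Jun and 0.22 for Dusp1, above 9.08% and 10.5% of genes, against a median of 0.42 over all genes tested. Counting error adds to the spread of Fosb and Nr4a1, whose libraries held as few as 5 and 14 counts, but Atf3 had at least 145.

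In the test of HFD against chow in Lama4 fl/fl mice (edgeR quasi-likelihood, all 24 mice in 1 model), 0 of 9 members passed. A gene was called at a fold change of at least 1.5, an unadjusted p no higher than 0.001 and a group mean of 2 CPM or more, which 0.173% of the genes tested met. No member had an unadjusted p under 0.05, against 9.01% of genes, and limma-voom and DESeq2 also called 0. The median log2 fold change of the members was -0.04, beside -0.01 over all genes. Fosb was farthest from 0, with a log2 fold change of -1.06 ± 0.62 (SE, edgeR adjusted p = 0.622). Without replicate 1 of chow-fed Lama4 fl/fl it was -0.04.

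In HFD-fed against chow-fed Lama4 AKO mice, again 0 of 9 members were called, where 4.12% of genes were, and limma-voom and DESeq2 called 0 as well. Dusp1 and Atf3 had an unadjusted p under 0.05, both higher on HFD, where 39.8% of genes had such a p (18.2% higher and 21.6% lower). The log2 fold change of Atf3 was 1.20 ± 0.49 (SE), a fold change of 2.29 (edgeR adjusted p = 0.0753). That of Dusp1 was 0.35 ± 0.14, a fold change of 1.27 (adjusted p = 0.0662). The median of the members was 0.30, beside -0.00 over all genes, with 5 members above 0 and 4 below.

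Between genotypes 0 of 9 members were called on chow, where 0.113% of genes were, and 0 of 9 on HFD, where 0.173% were, also by limma-voom and DESeq2. On chow no member had an unadjusted p under 0.05 (5.85% of genes did), and Atf3 had a log2 fold change of -0.56 ± 0.49 (adjusted p = 0.952 in edgeR). On HFD Dusp1 was the member with such a p (14.8% of genes had one), with a log2 fold change of 0.28 ± 0.14 (adjusted p = 0.332). Atf3 had 0.68 ± 0.48 and Junb 0.51 ± 0.33 there, with adjusted p-values of 0.488 and 0.453. With 19 mice, which left 3 HFD-fed Lama4 fl/fl mice, the log2 fold changes on HFD were smaller. They were 0.18 ± 0.15 for Dusp1, 0.21 ± 0.52 for Atf3 and 0.01 ± 0.32 for Junb (edgeR adjusted p = 0.747, 0.945 and 0.994).

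The interaction asks whether the response to HFD differed between genotypes. It gave 0 of 9 members where 0.386% of genes were called, with edgeR, limma-voom and DESeq2 alike, and 1 member, Dusp1, with an unadjusted p under 0.05, against 15.6% of genes. Its interaction was 0.43 ± 0.19 on the log2 scale (edgeR adjusted p = 0.293), and that of Atf3 1.24 ± 0.69 (adjusted p = 0.366). The diet comparisons of the 2 genotypes are thus not shown to differ for any member. No member had groups without overlap in any of the 4 comparisons, where 0.213%, 6.86%, 0.26% and 0.533% of genes had none, in the order of the comparisons above.

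With 19 mice the same criteria again called 0 of 9 members in every comparison. This was so although 11.8% of genes were called between diets in Lama4 fl/fl mice and 15.7% in Lama4 AKO mice, and 0.209% between genotypes on chow, 0.565% on HFD and 0.68% in the interaction. In Lama4 AKO mice Atf3 then had a log2 fold change of 1.52 ± 0.46 (edgeR adjusted p = 0.0146) and Dusp1 of 0.44 ± 0.13 (adjusted p = 0.0122). Atf3 no longer overlapped between these groups, as was true of 16.7% of genes. The mouse left out there, replicate 5 of chow-fed Lama4 AKO at 164.8 CPM, was the one that had overlapped. The lack of overlap thus follows from the choice of mice, on which these adjusted p-values also rest. In Lama4 fl/fl mice Junb had a log2 fold change of 0.88 ± 0.32 (adjusted p = 0.0481) and Fosb of -1.77 ± 0.77 (adjusted p = 0.0892). Of genes tested, 22.9% in Lama4 fl/fl and 27.7% in Lama4 AKO mice met an adjusted p of at most 0.05. The fold and mean required were the same. In each, 1 of 9 members met these criteria, and 9 genes are too few to set that share apart from the background.

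**Figure D2:**
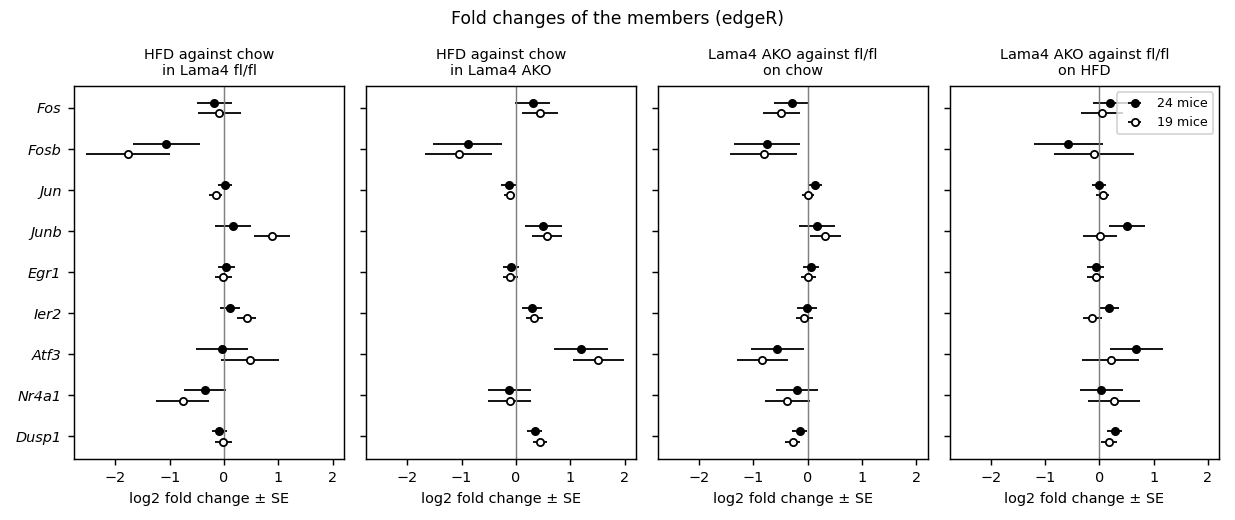
Log2 fold changes of the 9 members with their standard errors (horizontal axis) in the 4 comparisons, for all 24 mice (filled) and 19 mice (open), from edgeR. In units of its standard error, each of Atf3 and Dusp1 lies farthest from 0 in HFD against chow in Lama4 AKO mice, in both sets of mice.

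Within groups, several members moved together from mouse to mouse. With group means removed, 13 of the 36 pairs of members were correlated over the 24 mice (permutation of mice within groups, adjusted p of at most 0.05 over the 36 pairs), 12 with a positive r and 1 with a negative one. The same sign was kept in all 13 without the 2 mice farthest from the median of the first gene, and 11 also passed by Spearman's rho. Fos, Junb, Atf3, Dusp1 and Ier2 made up a block in which every pair was correlated. How many pairs would pass among all genes tested was not computed. The largest axis of variation over all genes held 45.8% of the variance. With group means removed, its r was 0.93 with Junb, 0.86 with Atf3, 0.74 with Ier2, 0.64 with Fos and 0.535 with Dusp1. The block is therefore not shown to be particular to immediate early genes.

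Atf3 and Junb had the strongest relation, with a Pearson's r of 0.88 (permutation p = 2e-05, adjusted 0.00036) and a rho of 0.82 (p = 3e-05, adjusted 0.00108). Without replicate 1 of chow-fed and replicate 4 of HFD-fed Lama4 fl/fl mice r was 0.78. Fos and Atf3 had an r of 0.86 (permutation p = 0.00014, adjusted 0.00168) and a rho of 0.70 (p = 0.00145, adjusted 0.00653), and an r of 0.69 without the 2 farthest mice, both of them replicate 1 of a chow-fed group. Fos and Dusp1 had an r of 0.65 (permutation p = 0.0027, adjusted 0.0108) and a rho of 0.76 (p = 0.00019, adjusted 0.00189), and r was 0.73 without those 2 mice.

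Fosb, the closest relative of Fos among the members, was not part of the block. Its r with Fos was -0.32 (permutation p = 0.235, adjusted 0.358) with a rho of -0.07 (p = 0.753, adjusted 0.829), and r was 0.16 without the 2 farthest mice. With Atf3 its r was -0.62 (permutation p = 0.0026, adjusted 0.0108) and its rho -0.56 (p = 0.00453, adjusted 0.0163), and r was -0.41 without replicates 1 and 3 of chow-fed Lama4 fl/fl. With Nr4a1 it had an r of 0.54 (permutation p = 0.0144, adjusted 0.0399), which fell short by rho (0.44, p = 0.0522, adjusted 0.145) and was 0.30 without those 2 mice. Jun and Nr4a1 behaved likewise, with an r of 0.61 (permutation p = 0.0108, adjusted 0.0324), a rho of 0.37 (p = 0.104, adjusted 0.250) and an r of 0.43 without the 2 farthest mice. Egr1 was correlated with no other member by r. By rho it passed with Fosb (0.57, permutation p = 0.00614, adjusted 0.0194), where r was 0.48 (p = 0.0205, adjusted 0.0527) and 0.49 without the 2 farthest mice.

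**Figure D3:**
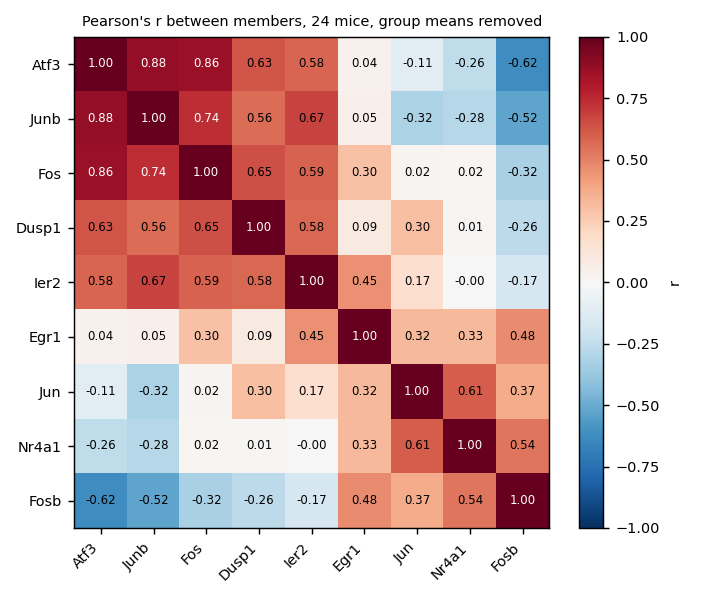
Pearson's r between members over 24 mice with group means removed, each cell giving the value and its color the sign. Atf3, Junb, Fos, Dusp1 and Ier2 form a block of positive values, from 0.56 to 0.88, and Fosb has a negative r to all 5, past the threshold with Atf3 alone.

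Handling and tissue makeup were followed with 10 other measures of the same libraries, and 35 of 90 pairs of a member and a measure were correlated (permutation within groups, adjusted over the 90 pairs). Measures and members come from the same scaled libraries, so a rise in some transcripts lowers the share of others. The share of all genes that would pass with each measure was not computed. Library total was correlated with none of the 9 members. In bulk tissue, fewer cells of a type and less RNA per cell cannot be told apart.

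The summed level of 9 macrophage markers was correlated with 6 members. For Atf3 r was 0.95 (permutation p = 1e-05, the smallest these permutations can give, adjusted 0.00018) and rho 0.87 (p = 2e-05, adjusted 0.00045), with an r of 0.89 without replicate 1 of chow-fed and replicate 4 of HFD-fed Lama4 fl/fl mice. All 9 markers had a positive r with Atf3, from 0.57 to 0.98. For Junb r was 0.89 (permutation p = 3e-05, adjusted 0.0003), with a rho of 0.77 (p = 8e-05, adjusted 0.00072) and 0.79 without those mice. Fos had an r of 0.71 (permutation p = 0.00405, adjusted 0.0132), which rested on those mice: r was 0.39 without them, and rho was 0.50 (p = 0.0277, adjusted 0.0624). For Fosb r was -0.69 (permutation p = 0.00028, adjusted 0.00194) and rho -0.67 (p = 0.00043, adjusted 0.00242), with -0.62 without those mice, and 0 of the 9 markers had a positive r. Egr1 had an r of -0.01 (permutation p = 0.975, adjusted 0.993) and a rho of -0.19 (p = 0.421, adjusted 0.642), and -0.41 without them.

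**Figure D4:**
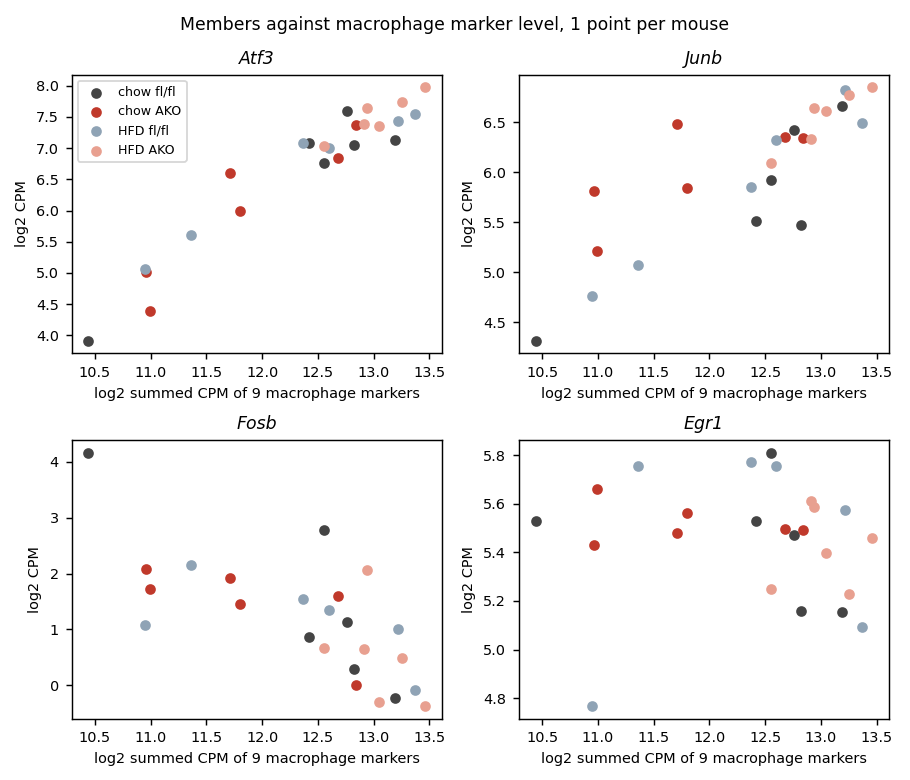
Log2 CPM of Atf3, Junb, Fosb and Egr1 (vertical axes) against the log2 summed CPM of 9 macrophage markers (horizontal axes), 1 point per mouse, colored by group. Atf3 and Junb climb with the marker level in all groups, Fosb declines, and Egr1 shows no slope.

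In the diet comparison of Lama4 AKO mice, 0 of the 9 macrophage markers were called, where 4.12% of all genes were. The difference in their summed level did not pass the adjusted threshold. The sum was 13.03 ± 0.31 (log2, SD, n = 6) in HFD-fed and 11.8 ± 0.80 in chow-fed Lama4 AKO mice (two-sided exact permutation p = 0.0108, adjusted 0.108 over 40 tests). The sum ran from 5997 to 11300 CPM in the former and from 1999 to 7328 CPM in the latter. None of the 9 markers was at 0 in all 24 mice. All 9 had a higher mean on HFD and 4 of them an unadjusted p under 0.05 (edgeR), which 39.8% of all genes had (18.2% higher and 21.6% lower). Their part in the level of Atf3 and Junb was not tested.

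Adipocyte markers ran the other way. Their sum had an r of -0.89 with Junb (permutation p = 1e-05, adjusted 0.00018) and of -0.84 with Atf3 (same p and adjusted p), with rho at -0.90 and -0.82 (p = 1e-05 and 3e-05, both adjusted 0.00045), and r was -0.83 and -0.79 without replicates 4 and 6 of HFD-fed Lama4 fl/fl. All 12 adipocyte markers had a negative r with each of Fos, Junb, Ier2, Atf3, Dusp1 and Egr1, and a positive one with Fosb. The largest axis of variation over all genes, the first principal component with 45.8% of the variance, had an r of 0.93 with Junb (permutation p = 1e-05, adjusted 0.00018) and a rho of 0.90 (p = 1e-05, adjusted 0.00045), and an r of 0.89 without the 2 farthest mice.

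Of the measures nearer to handling, hemoglobin transcripts, a sign of blood left in the tissue, had a negative r with the block. For Atf3 it was -0.75 (permutation p = 2e-05, adjusted 0.000225), with a rho of -0.77 (p = 2e-05, adjusted 0.00045) and -0.72 without replicate 1 of HFD-fed Lama4 fl/fl and replicate 5 of chow-fed Lama4 AKO. For Dusp1 it was -0.73 (permutation p = 0.00021, adjusted 0.00158), with a rho of -0.75 (p = 0.00012, adjusted 0.0009) and -0.77 without them. The share of counts on mitochondrially encoded genes had an r of -0.75 with Dusp1 (permutation p = 0.00038, adjusted 0.00214), a rho of -0.61 (p = 0.00576, adjusted 0.0205), and -0.61 without the 2 farthest mice.

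Heat shock genes, which also respond to stress of excised tissue, had a summed level with a negative r to all 5 genes of the block, although single genes ran from -0.90 to 0.75 with Junb. The sum of 16 such genes had an r of -0.66 with Fos (permutation p = 0.00357, adjusted 0.013) and a rho of -0.60 (p = 0.00743, adjusted 0.0248), but -0.42 without replicate 4 of chow-fed Lama4 AKO and replicate 1 of chow-fed Lama4 fl/fl. With the other 8 members the sum did not pass the adjusted threshold. Junb came nearest, at an r of -0.48 (permutation p = 0.0247, adjusted 0.0584). Without those same 2 mice r was -0.28 with Junb, -0.41 with Ier2, -0.22 with Atf3 and 0.008 with Dusp1. Both mice are among the 19. With 19 mice the r of the sum was -0.80 with Fos, -0.62 with Junb, -0.56 with Ier2, -0.54 with Atf3 and -0.36 with Dusp1. Dbp, a clock gene whose level follows the time of day, passed with Fos and Junb. Its r with Fos was 0.59 (permutation p = 0.00547, adjusted 0.0164), with a rho of 0.68 (p = 0.001, adjusted 0.00474) and 0.62 without the 2 farthest mice. Other clock genes differed from Dbp: of the 12 tested, Dbp included, 4 had a positive r with Fos. Their r with Fos ran from -0.64 (Per2) to 0.67 (Npas2), with a median of -0.35. Genes of this list need not peak at the same hour, so mixed signs cannot tell whether Dbp followed collection time. The sum of 11 glucocorticoid response genes was correlated with Jun alone, at an r of -0.48 (permutation p = 0.0184, adjusted 0.0474) and a rho of -0.49 (p = 0.0251, adjusted 0.0607), with -0.37 without replicates 6 and 2 of chow-fed Lama4 AKO. The part of collection time, blood, stress and cell makeup in these relations was not tested, and these measures were themselves related to one another.

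**Figure D5:**
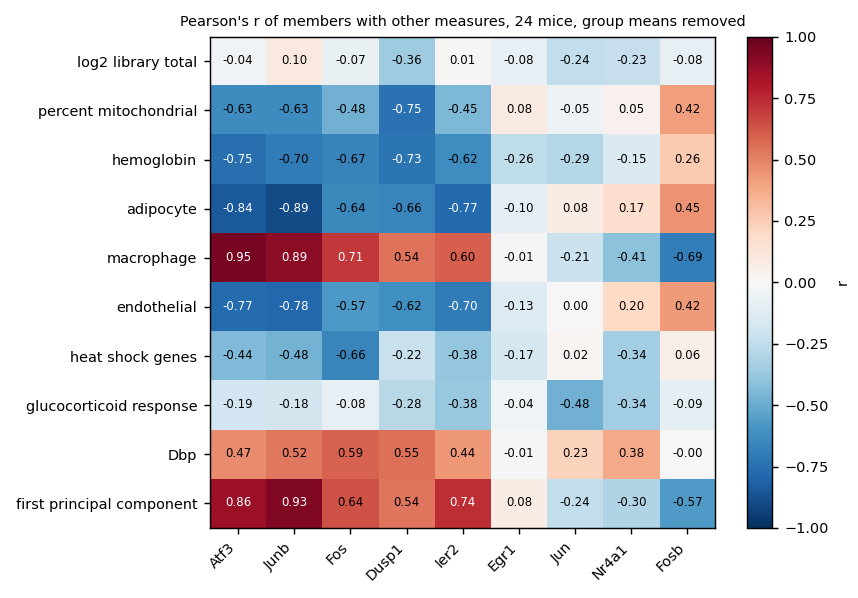
Pearson's r of each member (columns) with 10 other measures of the same libraries (rows) over 24 mice with group means removed. The 5 genes at the left share the same signs for macrophage, adipocyte, endothelial and hemoglobin transcripts, whereas Egr1, Jun and Nr4a1 stay between -0.48 and 0.38.

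With 19 mice 5 pairs of members and 18 pairs of a member and a measure were past the threshold, on fewer mice. The r of Atf3 with Junb was then 0.90 and with macrophage markers 0.94, that of Fos with Junb 0.89, and that of Fosb with Atf3 -0.61, whereas Ier2 with Atf3 was 0.33 and Ier2 with macrophage markers 0.26.

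Of 46 symbols of other immediate early genes, 42 were tested. With edgeR 0 were called in any of the 5 comparisons, where 0.113% to 4.12% of all genes were. In HFD against chow in Lama4 AKO mice 8 of them were higher and 2 lower at an unadjusted p under 0.05, which 39.8% of all genes had. Their median log2 fold change was 0.12, beside -0.00 over all genes. The 3 most like the members were Plk2, a polo-like kinase (median r to the 9 members 0.71), Fosl1, another AP-1 subunit (0.65), and Egr2, a relative of Egr1 (0.63). Egr2 had an r of 0.94 with Atf3 and a log2 fold change of 1.48 ± 0.51 (SE, edgeR adjusted p = 0.0415) in HFD against chow in Lama4 AKO mice.

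Of the regulators that act upstream, such as serum response factor, its cofactors and the CREB family, 30 were tested and 0 called. In HFD against chow in Lama4 AKO mice 7 were higher and 3 lower at an unadjusted p under 0.05 in edgeR. Of all genes, 18.2% were higher and 21.6% lower at such a p there, and 4.12% were called. The serum response cofactor gene Mrtfb had a log2 fold change of 0.49 ± 0.19 (adjusted p = 0.0659) there. Of 16 heat shock genes 0 were called, with 2 higher and 3 lower at such a p in edgeR. The cochaperone gene Bag3 had 0.73 ± 0.21 (adjusted p = 0.0253) and the inducible Hspa1a 0.85 ± 0.37 (adjusted p = 0.0925).

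Of these 5 lists, 2 held a called gene, both in this comparison, where 4.12% of all genes were called. Cdkn1a, a cell cycle inhibitor among 11 glucocorticoid response genes, was lower on HFD in Lama4 AKO mice, with a log2 fold change of -1.04 ± 0.24 (edgeR adjusted p = 0.0153). Nr1d2, a clock repressor among 12 clock genes tested, was higher, at 1.32 ± 0.27 (adjusted p = 0.0124). Dbp, in the same list, had 0.22 ± 0.15 (adjusted p = 0.281). With 19 mice, 3 other immediate early genes (2 higher, 1 lower), 4 regulators (all higher), 2 heat shock genes (1 higher, 1 lower), 2 glucocorticoid response genes (both lower) and 3 clock genes (2 higher, 1 lower) were called there, where 15.7% of genes were.

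Of the 12 lists of cell type markers, 11 had tested genes. In that comparison, where 4.12% of all genes were called, 5 of 6 mast cell markers and 1 of 8 stromal progenitor markers (Pdgfra) were called higher. Called lower were 1 of 12 adipocyte markers (Lep) and 1 of 8 mesothelial markers (Msln). The other 7 lists (hemoglobin, macrophage, T and B cell, neutrophil, endothelial, smooth muscle and pericyte, and skeletal muscle) held no called gene. At an unadjusted p under 0.05 in edgeR, which 18.2% of all genes had with a higher and 21.6% with a lower level on HFD, 6 mast cell, 5 stromal progenitor, 4 macrophage and 1 smooth muscle and pericyte markers were higher. At such a p 9 of 12 adipocyte, 8 of 8 endothelial, 4 mesothelial, 3 smooth muscle and pericyte, 1 neutrophil and 1 skeletal muscle markers were lower, and hemoglobin and T and B cell markers had none in either direction. The adipocyte markers had a median log2 fold change of -1.09. Their summed level was 14.49 (log2, mean of 6 mice) in HFD-fed and 15.25 in chow-fed Lama4 AKO mice (two-sided exact permutation p = 0.0195, adjusted 0.124), and their part in the levels of Atf3 and Dusp1 was not tested. The 2 epididymis markers in the table summed to at most 17.6 CPM. Mast cell markers, whose 6 genes all had a positive r with each of Fos, Junb, Ier2, Atf3 and Dusp1 (median 0.82 for Junb), had the largest median log2 fold change of these lists (3.41), and their part in the members' levels was not tested.

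Over all genes tested, the 10 whose levels within groups had the highest median r to the 9 members were C77080, Shc2, Rragd, Igf2bp2, Cdc14b, Mamld1, Plaur, Plk2, Adcy3 and Gpr176, from 0.75 for C77080 to 0.70 for Gpr176. Plaur encodes the urokinase receptor of macrophages and Rragd a GTPase of nutrient signaling. Each of the 10 ran opposite to at least 1 member, with a lowest r between -0.55 and -0.35. Looked up for Atf3 and Fosb after their patterns were seen, the nearest genes differed. Atf3 was closest to Trem2, the lipid-sensing receptor of macrophages, with an r of 0.99 over the 24 mice, followed by Aph1c, Pak1, Adam8 and Atp6v0d2, a proton pump subunit, the last at 0.98. Fosb was closest to Trpc1, a cation channel gene (0.84), Celsr2, Gm38190, Arhgef12 and Ebf1, a transcription factor of adipocytes (0.79).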

How the data were processed

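QuantSeq libraries of eWAT from 24 mice were counted by the authors with the Lexogen QuantSeq pipeline on Bluebee (GRCm38). The deposited raw counts per gene, with no normalization, were used for every value. The second deposited table holds the same counts divided by size factors (normalized signal), and was used for symbols and positions only. The submitters' processing notes name R 4.0.3 and DESeq2 1.30.

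Members and gene lists were chosen with earlier results of these data known. Counts were scaled by TMM and fitted with edgeR 4.0.16 (quasi-likelihood, 1 coefficient per group) in R 4.3.3, after a filter of 1 CPM in at least 3 mice. CPM and log2 CPM (prior count 2) use the same factors. P-values were adjusted by Benjamini and Hochberg over the 15020 genes. Correlations used log2 CPM with group means removed and 100000 permutations of mice within groups, two-sided. Each library is labelled as a separate mouse.

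Genes named by rule are the members, genes of the 5 response lists that were called or among the 3 most like the members, the 10 genes most like the members over all genes, and Lama4. Dbp was a fixed measure. The called cell type markers and the genes nearest to Atf3 and Fosb fall outside the rule and were chosen after their values were seen. Of 18 lists, 12 hold cell type markers, and no list was tested as a set. Alternatives were limma-voom 3.58.1, DESeq2 1.42.0, RLE size factors, no filter, 2-group fits, a replicate block, other call criteria, 19 mice and each mouse left out. Scripts were tested on simulated data.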

Additional observations from a re-analysis of the deposited data

Results flagged for a closer look

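Each of the 9 members was examined in each of the 4 groups. In 5 of these 36 cases the lowest of 6 mice stood apart by Dixon's criterion, a gap over 0.625 of the range, which chance meets in about 1 of 20 groups. Fos was 3.34 (log2 CPM) in replicate 1 of chow-fed Lama4 fl/fl, and the next mouse was at 4.88. Atf3 was 3.92 in that same mouse, and the next was at 6.76. Fos was 3.91 in replicate 4 of HFD-fed Lama4 fl/fl, 1 of the 5 mice inferred to have been set aside. Fosb was 0.0043 in replicate 5 of chow-fed Lama4 AKO, another of these, on 5 counts. Nr4a1 was 0.013 in replicate 2 of HFD-fed Lama4 fl/fl, on 14 counts.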

How the results depend on the processing

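With the criteria of the report, the count of members called was 0 in all 5 comparisons under every alternative run. Of 306 fold changes of members recomputed, 14 changed sign and 0 crossed the threshold, and of 1080 with 1 mouse left out 33 changed sign. None of these was a call, and the cause was not tested. In HFD against chow in Lama4 fl/fl mice, Atf3 had a log2 fold change of 0.039 by limma-voom, 0.0038 in a fit of only the 2 groups and 0.48 with 19 mice, and with 19 mice Jun had -0.16 and Egr1 -0.013. Between genotypes, Fosb had 0.32 on chow by limma-voom, and with 19 mice on HFD Jun had 0.058 and Ier2 -0.13. In the interaction Fosb had -0.96 by limma-voom, and with 19 mice Jun had 0.046, Junb -0.32 and Ier2 -0.074.

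With 1 mouse left out, ranges of log2 fold changes that crossed 0 were, in HFD against chow in Lama4 fl/fl mice, -0.087 to 0.065 for Jun, -0.045 to 0.39 for Junb, -0.016 to 0.15 for Egr1, -0.054 to 0.23 for Ier2 and -0.27 to 0.15 for Atf3, and in Lama4 AKO mice -0.28 to 0.032 for Nr4a1. Between genotypes on chow they were -0.98 to 0.28 for Fosb, -0.0090 to 0.39 for Junb, -0.048 to 0.037 for Ier2 and -0.37 to 0.16 for Nr4a1, and on HFD -0.057 to 0.045 for Jun and -0.17 to 0.17 for Nr4a1. In the interaction they were -0.85 to 0.44 for Fosb and -0.12 to 0.41 for Nr4a1. Pairs of members past the threshold numbered 5 with 19 mice and 11 to 15 with 1 mouse left out. Pairs of a member and a measure numbered 18 with 19 mice and 27 to 39 with 1 left out, the lowest without replicate 1 of chow-fed Lama4 fl/fl.

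Same-numbered mice did not vary together throughout (r from -0.53 to 0.71, 15 of 36 pairs over 0.1, 5 of 24 mice closest to their own number). The main fit did not pair mice by number, and these values cannot exclude such a pairing. With the replicate number as a block the calls stayed at 0, Atf3 had 0.11 in HFD against chow in Lama4 fl/fl mice and Fosb -0.27 in the interaction. Depth limited Fosb and Nr4a1, with as few as 5 and 14 counts in a library.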
